A study of Oryza sativa with 10 samples.

Results

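The genes described here are the 10 rice loci named MET1a, MET1b, CMT3a, CMT2, DRM2, DDM1a, DDM1b, ROS1a, ROS1b and ROS1c, which write, keep or remove DNA methylation. They were taken by locus identifier from the 55801 features counted in each library, with earlier results of these data known. In plants, cytosines are methylated in 3 sequence settings: CG, CHG and CHH, where H is any base but G. MET1 enzymes copy CG methylation after DNA replication, CMT3 enzymes keep CHG methylation, CMT2 and DRM2 act on CHH sites, and DDM1 is a chromatin remodeller that gives the methyltransferases access to packed DNA. The ROS1 proteins belong to the DEMETER family of DNA glycosylases, which cut methylated cytosine out of DNA. In seeds this balance is best known from the endosperm, the nourishing tissue, where demethylation of the maternal genome is tied to genomic imprinting.

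RNA was sequenced from rice (Oryza sativa) seeds without the husk at 48 and 72 hours after fertilization (HAF). Beside wild type (WT) there were overexpression lines for MADS78 (OE78-8, called OE78) and for MADS79 (OE79-3, called OE79), and CRISPR edited lines for MADS78 (Cr78_8.22.2, called CR78) and MADS79 (Cr79_11.25.3, called CR79). MADS78 and MADS79 encode type I MADS-box transcription factors, and the study's title places them in early seed development. With 5 genotypes, 2 times and 1 library for each, there were 10 libraries, and 1 line stood for each manipulation. The sources used here do not give the promoter of the transgenes, the edits or the cultivar.

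Library totals ran from 12267337 to 18040600 counts. MADS78 had 2116 reads in OE78 at 72 HAF and at most 6 in any other library, while MADS79 had 39 and 7 reads in the libraries labelled OE79 against 33 and 20 in WT. A clearly raised target was thus read in 1 of the 4 libraries labelled as overexpression. CR79 had 34 reads of MADS79 at 48 HAF and 0 at 72 HAF, but OE78 also had 0 and CR78 had 3 at 72 HAF. MADS78 had 3 and 0 reads in WT and 1 and 1 in CR78, too few to compare. Of 7 endosperm markers, NF-YC12 had no read in any library of 48 HAF, and Wx, the amylose synthase gene, stayed at or under 0.29 CPM there. The lines differed at 48 HAF in RPBF, with 0.0587 CPM in WT and up to 6.58 in CR79, and in RISBZ1, with 1.17 in WT and up to 10.02 in CR79. The summed level of the 7, most of it AGPS2 at 48 HAF (168 to 201 CPM), was 185 to 210 CPM in all 5 libraries of 48 HAF. At 72 HAF the sum was 480 to 539 CPM in WT, OE78 and OE79, and far more in the CRISPR lines, with 2187 CPM for CR78 and 1595 CPM for CR79. In CR78 at 72 HAF most of it was AGPS2 (1270 CPM) and Wx (652 CPM). The nucellus gene MADS29 and the green tissue gene Cab2R were read in every library, so the seed samples may have held maternal tissue as well. The anther gene GAMYB was also read in every library (27.2 to 48.6 CPM), so reads of a marker do not by themselves show a tissue. OSH1, an embryo and meristem gene, had 9.10 to 23.4 CPM at 48 HAF. At 72 HAF OSH1 had 6.52 to 13.0 CPM in WT, OE78 and OE79, 2.23 CPM in CR78 and 1.59 CPM in CR79. CR78 at 48 HAF had 143 CPM of the heat shock gene HSP101 against 9.68 to 18.3 CPM elsewhere, and in CR79 at 72 HAF 15.1% of all counts fell on the 50 top genes, against 6.8% to 9.28% elsewhere. In such whole seeds, a smaller share of a cell type and less RNA per cell cannot be told apart.

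Levels are given as CPM, the count relative to the TMM-scaled total of the library, and are compared between libraries but not between genes. Of the 10 genes, 9 had enough reads to be tested, and CMT2 had none. ROS1b had reads at 72 HAF alone and passed the low count filter only through them, so its direction was fixed and it is described apart. Of the 8 genes with reads at both times, 4 fell from 48 to 72 HAF, 1 rose and 3 did not pass (edgeR quasi-likelihood test of 1 time effect over the 5 genotypes, adjusted p under 0.05). Over all 25354 tested genes the same test called 28.1%, with 12.9% lower and 15.2% higher at 72 HAF. The genes that fell were MET1a, CMT3a, DDM1a and DDM1b, and the one that rose was the glycosylase gene ROS1a. The median log2 fold change was -0.59 over the 8 genes and -0.02 over all tested genes. MET1a, CMT3a, DDM1a and DDM1b were lower in every library of 72 HAF than in every library of 48 HAF, as were 7.88% of all tested genes. No gene of the 8 was higher in every library of 72 HAF, as 10.6% of all tested genes were, ROS1b among them.

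**Figure D1:**
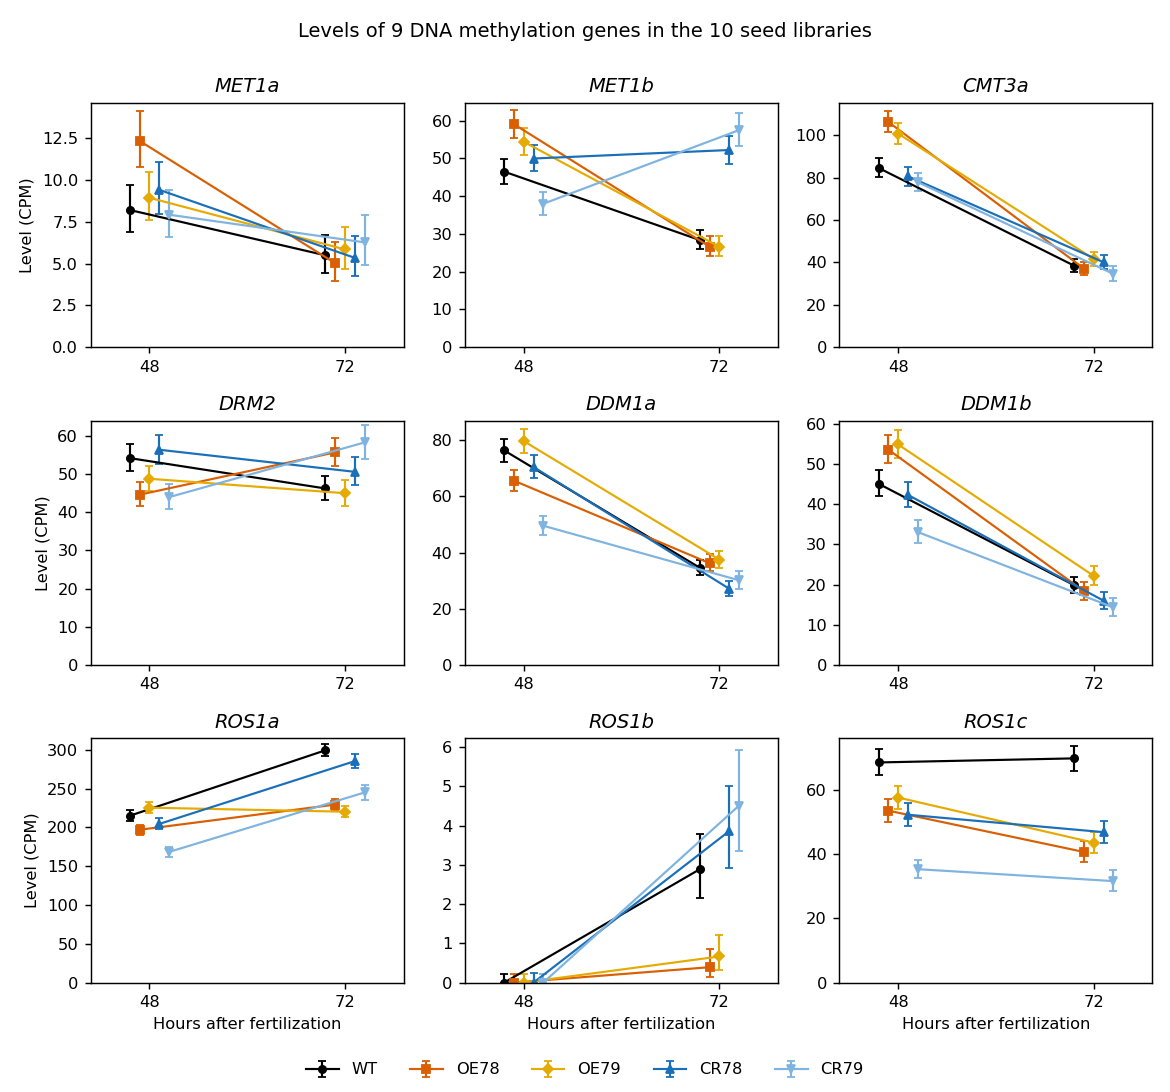
Level of each of the 9 genes with reads, in CPM, at 48 and 72 HAF, with 1 point per library joined by genotype. Bars are exact 95% Poisson intervals, which cover counting error only. CMT3a, DDM1a and DDM1b drop in all 5 genotypes, MET1b drops in WT, OE78 and OE79 but not in CR78 and CR79, and ROS1b has reads at 72 HAF alone.

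CMT3a (LOC_Os10g01570), the CHG methyltransferase gene, was measured at 48 HAF at 84.6 CPM for WT, 106 for OE78, 101 for OE79, 80.6 for CR78 and 77.9 for CR79. At 72 HAF the same lines had 38.4, 37.1, 41.6, 40.1 and 34.5 CPM. The times did not overlap, and the 5 libraries of 72 HAF lay closer together than those of 48 HAF. Its log2 fold change over time was -1.22 (SE 0.0927, edgeR adjusted p = 9.18e-05), and within a line the level at 72 HAF was 0.349 to 0.497 times that at 48 HAF.

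Both genes for the DDM1 remodeller fell. DDM1b (LOC_Os03g51230) had 45.1 CPM for WT, 53.6 for OE78, 54.9 for OE79, 42.3 for CR78 and 33.1 for CR79 at 48 HAF, and 19.8, 18.3, 22.1, 16.0 and 14.3 CPM at 72 HAF. Its log2 fold change was -1.33 (SE 0.0901, edgeR adjusted p = 5.19e-05). DDM1a (LOC_Os09g27060) went from 76.4 CPM for WT, 65.6 for OE78, 79.7 for OE79, 70.5 for CR78 and 49.6 for CR79 to 34.6, 36.2, 37.5, 27.1 and 30.1 CPM. CR79 was the lowest library for both genes at 48 HAF, and the times again did not overlap. The log2 fold change of DDM1a was -1.04 (SE 0.107, edgeR adjusted p = 0.000355). Reads of such paralogs can be shared or dropped in counting, so the pair was also summed: it had 82.6 to 135 CPM at 48 HAF and 43.1 to 59.6 CPM at 72 HAF. DDM1b gave 32.2% to 45.0% of the reads of the pair.

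MET1a (LOC_Os03g58400) and MET1b (LOC_Os07g08500) are the CG maintenance methyltransferase genes. MET1a was read thinly, with 129 to 216 reads at 48 HAF and 71 to 99 at 72 HAF. Its level was 8.21 CPM for WT, 12.4 for OE78, 8.95 for OE79, 9.42 for CR78 and 7.93 for CR79 at 48 HAF, and 5.50, 5.02, 5.85, 5.35 and 6.27 CPM at 72 HAF. It fell with time, with a log2 change of -0.73 (SE 0.169 by edgeR, adjusted p = 0.014). This call was lost without CR78 at 48 HAF (edgeR adjusted p = 0.0517) but not without CR78 at 72 HAF. Either run takes CR78 out of the time effect, since its other library has no partner, so the loss does not single out the library of 48 HAF. Without both CR78 and OE78 at 48 HAF, where only WT, OE79 and CR79 kept both times, the log2 fold change of MET1a was -0.52 (edgeR adjusted p = 0.175). MET1b carried 82.0% to 90.7% of the reads of the MET1 pair in every library, and it did not pass the test of 1 common time effect (log2 fold change -0.45, SE 0.247, edgeR adjusted p = 0.209).

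MET1b went different ways in the lines. At 48 HAF it had 46.5 CPM for WT, 59.1 for OE78, 54.4 for OE79, 49.99 for CR78 and 38.0 for CR79. At 72 HAF it had 28.4, 26.6 and 26.6 CPM in WT, OE78 and OE79, but 52.2 in CR78 and 57.5 in CR79. At 72 HAF both CRISPR lines were thus above WT and both overexpression lines, which lay close together. Within a line, the level at 72 HAF relative to 48 HAF was 0.61 in WT (95% interval 0.545 to 0.682), 0.451 in OE78 (0.401 to 0.506) and 0.488 in OE79 (0.433 to 0.55). It was 1.04 in CR78 (0.945 to 1.16) and 1.51 in CR79 (1.35 to 1.69), where the intervals of these ratios are exact and cover counting error only. Against WT at 72 HAF, MET1b stood 1.84 times as high in CR78 (95% interval 1.64 to 2.06) and 2.03 times as high in CR79 (1.8 to 2.28), each 1 library against 1.

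The difference between the time changes was tested by taking the 2 lines of a class as its replicates. For MET1b the change in the overexpression lines minus that in the CRISPR lines was a log2 value of -1.41 (SE 0.228 by edgeR, adjusted p = 0.0797), which did not pass over all genes. None of the 9 genes passed this test, 1 had an unadjusted p under 0.05 (10.1% of all genes did), and over all genes the test called 3, or 0.0118%. With the line as a replicate block the difference for MET1b was -1.42 (edgeR adjusted p = 0.00292), and that fit called 1018 genes. DESeq2 gave -1.40 with adjusted p = 0.000606, so MET1b was the 1 of the 9 genes called by DESeq2 and by the block fit. Both alternatives called many more genes over the whole table than the 3 of the first test, with the DESeq2 count given in the last section. Leaving out each library in turn gave -1.62 to -1.22. The level of MET1a at 72 HAF was 0.567 times that at 48 HAF in CR78 and 0.791 times in CR79, and the share of MET1b in the pair was 90.7% and 90.2% in these lines at 72 HAF and between 82.0% and 85.9% in each of the remaining 8 libraries. The summed endosperm markers were also highest in CR78 and CR79 at 72 HAF (2187 and 1595 CPM, against at most 539 in the other 8 libraries), and their part in this difference was not tested.

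**Figure D2:**
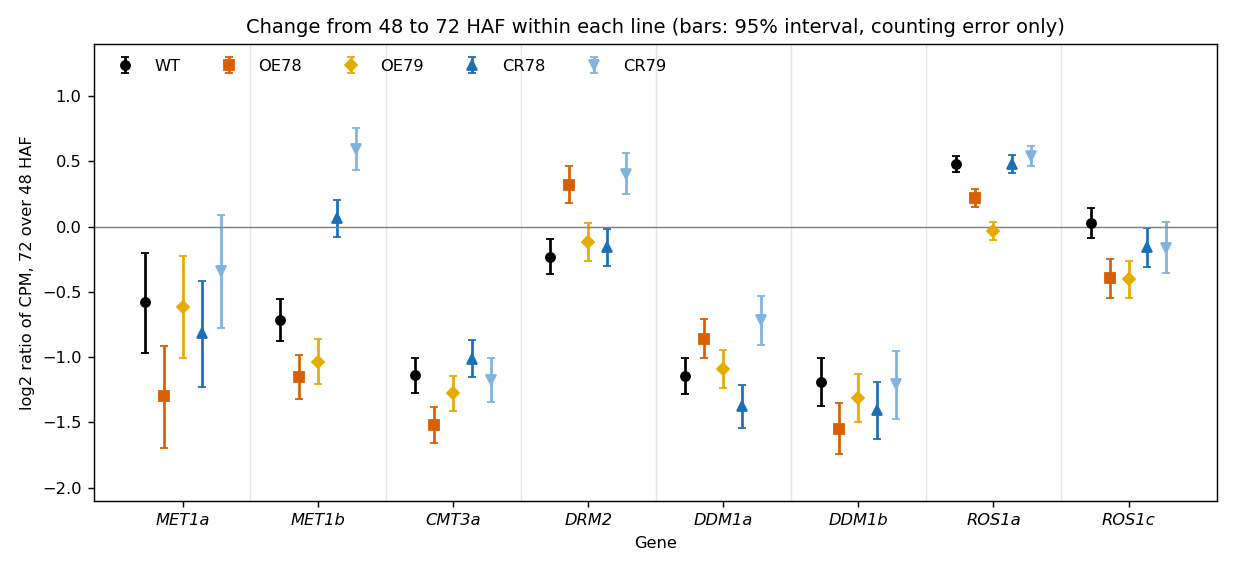
Change of each gene within each line as the log2 ratio of CPM at 72 over 48 HAF, with 1 point per line and bars for the exact 95% interval from counting error only. For MET1b, WT, OE78 and OE79 lie below 0, at -0.71, -1.15 and -1.03, and CR78 and CR79 lie at 0.06 and 0.60. ROS1b is not drawn because it had no read at 48 HAF.

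CMT2 (LOC_Os05g13790), named as the CHH methyltransferase gene outside RNA-directed methylation, had 0 reads in all 10 libraries. A count of 0 allows 3 counts, or 0.167 to 0.265 CPM per library, so its expression was not detectable under this identifier. The identifier just before it, LOC_Os05g13780, was looked at after the values were seen and had 390 to 861 reads in every library. The files give no gene name for either identifier.

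DRM2 (LOC_Os03g02010) encodes the methyltransferase that small RNAs guide to its targets. It had 54.2 CPM for WT, 44.6 for OE78, 48.8 for OE79, 56.4 for CR78 and 44.0 for CR79 at 48 HAF, and 46.2, 55.7, 45.0, 50.6 and 58.3 CPM at 72 HAF. The times overlapped, and 2 of the 5 lines had more at 72 HAF while 3 had less. The log2 fold change was 0.04 (SE 0.116, edgeR adjusted p = 0.805), with a sign that turned to -0.06 under scaling by library totals alone. Each line stood between 0.811 and 1.26 times WT at either time.

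ROS1a (LOC_Os01g11900) is the DNA glycosylase gene that rice seeds are known to need for normal endosperm. It had 215 CPM for WT, 197 for OE78, 226 for OE79, 205 for CR78 and 168 for CR79 at 48 HAF, and 300, 230, 220, 286 and 245 CPM at 72 HAF. It was higher at 72 HAF in 4 of the 5 lines, and the times overlapped. ROS1a rose by a log2 value of 0.34 (SE 0.105, edgeR adjusted p = 0.0437), and the call was lost in 8 of the 10 runs that left out 1 library (edgeR adjusted p = 0.0682 to 0.14). Those 8 libraries were the ones of WT, OE78, CR78 and CR79. With a genotype term in the fit, a library whose partner is left out carries no information on time. The 8 runs thus stand for these 4 lines and are not 8 separate checks. Under scaling by library totals alone the median of all genes moved to -0.13 and ROS1a stood at 0.23 (edgeR adjusted p = 0.13). At 72 HAF both overexpression lines were below WT, at 0.766 times (95% interval 0.734 to 0.8) in OE78 and 0.736 times (0.704 to 0.768) in OE79, while CR78 was at 0.953 times (0.915 to 0.993) and CR79 at 0.818 times (0.781 to 0.857). The difference in time change between overexpression and CRISPR lines was -0.42 for ROS1a (SE 0.221, edgeR adjusted p = 0.596).

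ROS1b (LOC_Os02g29230), another glycosylase gene of the family, had no read in any of the 5 libraries of 48 HAF. At 72 HAF it had 52 reads in WT, 57 in CR78 and 51 in CR79, but 6 in OE78 and 10 in OE79. These are 2.89, 3.86 and 4.51 CPM, and 0.391 and 0.665 CPM in the overexpression lines, which were the 2 lowest of that time. Set against the 3 counts per library that a count of 0 allows at 48 HAF, ROS1b was at least 16.4-fold higher at 72 HAF in WT, 20.5-fold in CR78, 24.4-fold in CR79, 2.28-fold in OE78 and 3.81-fold in OE79. Those bounds take the count at 72 HAF as it was read, and with its counting error the exact 95% lower limits of the ratios were 12.9, 16.1, 19.2, 1.34 and 2.56 in the same order. The test of time says nothing of ROS1b beyond these counts, since the filter kept it for its reads at 72 HAF, and no p is given. Relative to WT at 72 HAF, ROS1b was at 0.136 times in OE78 (95% interval 0.0476 to 0.316) and 0.23 times in OE79 (0.104 to 0.458), 1 library against 1. The test of overexpression against CRISPR lines over both times did not pass for it (log2 difference -2.95, SE 0.625, edgeR adjusted p = 0.136). That test passed with no filter on low counts (edgeR adjusted p = 0.0494), and it rests on 4 libraries of 72 HAF, since all those of 48 HAF were at 0.

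ROS1c (LOC_Os05g37350), the third glycosylase gene named here, was lower than WT in every other library of the same time. It had 68.6 CPM for WT, 53.6 for OE78, 57.7 for OE79, 52.3 for CR78 and 35.4 for CR79 at 48 HAF, and 69.9, 40.7, 43.6, 46.9 and 31.6 CPM at 72 HAF. CR79 was the lowest at both times, and WT was the highest at both. All lines were set against the same WT library at each time, and the share of all genes with WT highest at both times was not counted. ROS1c did not pass the time test (log2 fold change -0.22, SE 0.0911, edgeR adjusted p = 0.109), although it did under scaling by library totals alone (log2 fold change -0.32, edgeR adjusted p = 0.0406).

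Each line was then compared with WT over both times, with the 2 times of a line standing in for replicates. ROS1c was lower in CR79 (log2 fold change -1.06, SE 0.146, edgeR adjusted p = 0.0204), at 0.515 times WT at 48 HAF and 0.453 times at 72 HAF. It was the 1 member of 9 that passed in CR79, where the test called 2.19% of all genes (0.726% lower and 1.46% higher), and 3 members had an unadjusted p under 0.05, as did 21.8% of all genes. The call was lost without either WT library or either CR79 library (edgeR adjusted p = 0.0689 to 0.176), with a log2 fold change between -1.21 and -0.89 over the runs that left out 1 library. In OE78, OE79 and CR78 the log2 fold changes of ROS1c were -0.57, -0.47 and -0.49 (SE 0.144, 0.143 and 0.143), and none passed over all genes (edgeR adjusted p = 0.511, 1 and 0.713). The 4 comparisons share the same WT libraries. No member passed by edgeR or DESeq2 in OE78, OE79 or CR78, where edgeR called 0.142%, 0.154% and 0.0749% of all genes and 2, 1 and 1 members had an unadjusted p under 0.05, as did 4.82%, 3.3% and 5.4% of all genes. Genes called lower were 0.00789% in each overexpression line.

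A further locus of the wider list, LOC_Os05g37410 on the same chromosome by its identifier, followed ROS1c closely. It had 69.9 and 73.2 CPM in WT and 33.0 and 28.1 CPM in CR79 (log2 fold change -1.24, SE 0.154, edgeR adjusted p = 0.015). It gave 47.0% to 53.8% of the summed reads of the pair in every library, and reads shared between these loci cannot be resolved from the counts. The pair together had 138 and 143 CPM in WT and 68.4 and 59.7 CPM in CR79. The DDM1 genes in CR79 had log2 fold changes of -0.41 for DDM1a (SE 0.169, edgeR adjusted p = 0.206) and -0.46 for DDM1b (SE 0.142, edgeR adjusted p = 0.119), and neither passed.

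**Figure D3:**
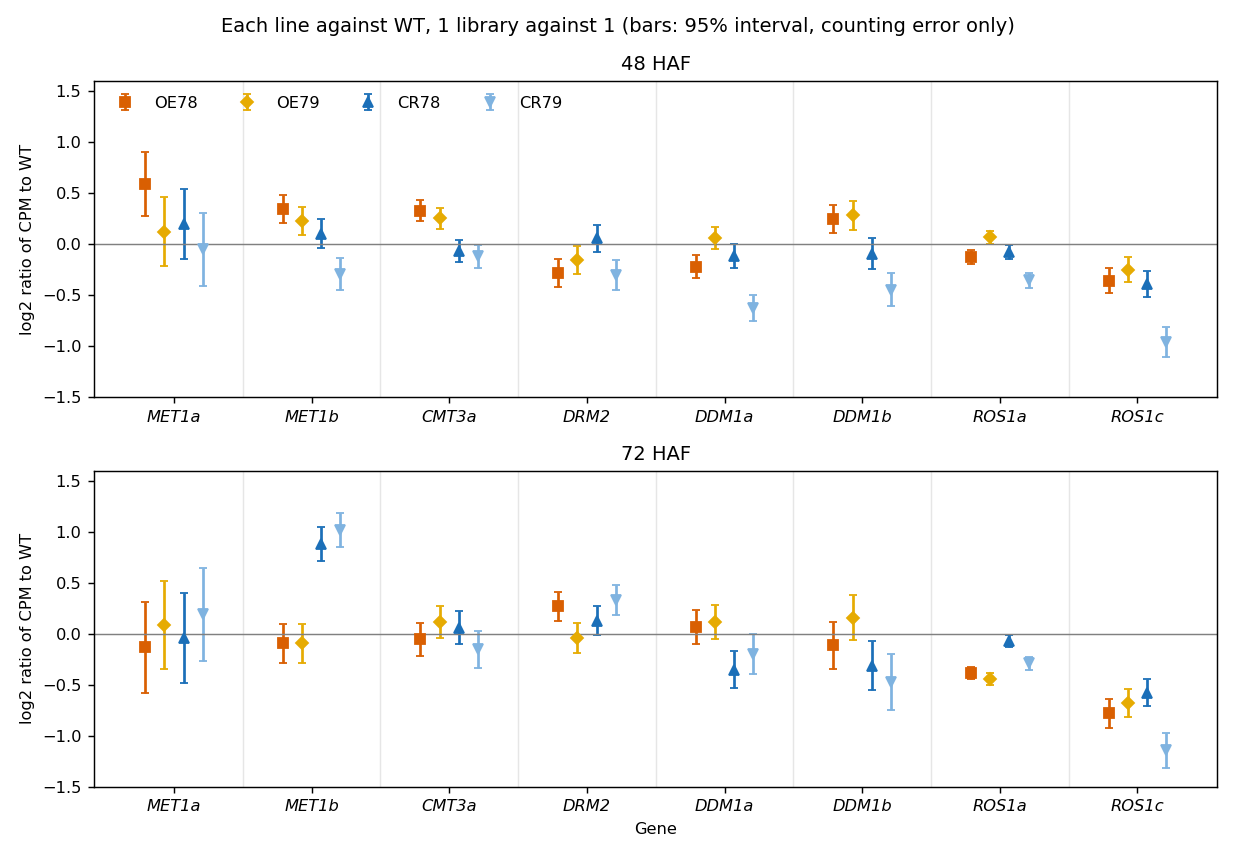
Each line against WT at 48 HAF (top) and 72 HAF (bottom) as the log2 ratio of CPM, with 1 library against 1 and bars for the exact 95% interval from counting error only. ROS1c lies below 0 in all 4 lines at both times and lowest in CR79, and at 72 HAF MET1b lies above 0 in CR78 and CR79 alone. ROS1b is not drawn because it had no read at 48 HAF.

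Overexpression lines were compared with CRISPR lines over both times. No member passed by edgeR, which called 0.572% of all genes (0.213% higher in the overexpression lines), or by DESeq2, and 5 of 9 had an unadjusted p under 0.05, as did 18.1% of all genes. DDM1b came nearest (log2 difference 0.48, overexpression minus CRISPR, SE 0.0996, edgeR adjusted p = 0.0801). DDM1a stood at 0.32 (SE 0.119, edgeR adjusted p = 0.214) and CMT3a at 0.24 (SE 0.102, edgeR adjusted p = 0.273). Beside these, the summed level of 7 DNA replication genes, MCM2 to MCM7 and PCNA, was 829 and 892 CPM in OE78 and OE79 at 48 HAF, 744 in WT, and 737 and 586 in CR78 and CR79. At 72 HAF it was 304 to 467 CPM. With time all 7 passed as lower by edgeR, as did 12.9% of all tested genes. Between overexpression and CRISPR lines 1 of the 7 passed by edgeR, as higher in the overexpression lines. All 7 had an unadjusted p under 0.05 by edgeR there, as did 18.1% of all genes. The part of dividing cells in the levels of CMT3a and the DDM1 genes was not tested.

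Of 20 further loci of the methylation pathway, 19 were tested and 3 rose, 7 fell and 9 did not pass between the times, with a median log2 fold change of -0.21. Over all tested genes the same test called 15.2% higher and 12.9% lower, with a median of -0.02. AGO4b (LOC_Os04g06770), an Argonaute that carries the guiding small RNAs, fell, with 220 to 256 CPM at 48 HAF and 121 to 171 at 72 HAF (log2 fold change -0.68, SE 0.086, edgeR adjusted p = 0.000884). The related AGO4a (LOC_Os01g16870) fell by 0.35 in log2 (edgeR adjusted p = 0.0245), a call that was lost in 8 of the 10 runs that left out 1 library, all but those of OE78 (edgeR adjusted p = 0.0588 to 0.0741). As for ROS1a, both runs of a line take that line out of the time effect. DRM3 (LOC_Os05g04330), a member of the DRM methyltransferase family, fell by 0.36 in log2 (edgeR adjusted p = 0.0107, and 0.165 without CR78 and OE78 at 48 HAF). RDR2 (LOC_Os04g39160), an RNA-dependent RNA polymerase of the same pathway, had 52.9 to 71.2 CPM at 48 HAF and 61.4 to 66.2 at 72 HAF and did not pass (edgeR adjusted p = 0.963). The other named loci have no gene name in the table used here. LOC_Os03g12570 fell, with 5.10 to 13.3 CPM at 48 HAF and 2.47 to 3.92 at 72 HAF (log2 fold change -1.45, edgeR adjusted p = 0.000564), LOC_Os01g70220 fell by 0.64 in log2 (edgeR adjusted p = 0.00223, and 0.0529 without the genotype term) and LOC_Os04g48370 by 0.57 (edgeR adjusted p = 0.00478, and 0.086 without CR78 and OE78 at 48 HAF). LOC_Os02g43460 rose, with 15.4 to 27.0 CPM at 48 HAF and 35.8 to 47.1 at 72 HAF (log2 fold change 0.98, edgeR adjusted p = 0.00169). LOC_Os11g01810, counted among the 3, had at most 1 read at 48 HAF and 2 to 16 at 72 HAF, so the filter kept it for 72 HAF alone and its direction was fixed. Its call was lost without either library of CR78 (edgeR adjusted p = 0.0527 and 0.0594) and without CR78 and OE78 at 48 HAF (edgeR adjusted p = 0.194). In CR79 2 of the 19 were lower than WT, LOC_Os05g37410 and LOC_Os01g70220 (log2 fold change -0.79, SE 0.156, edgeR adjusted p = 0.0451). That comparison called 0.726% of all genes lower. Of the 19, 7 had an unadjusted p under 0.05 by edgeR, as did 21.8% of all genes. The call of LOC_Os01g70220 in CR79 was lost in 8 of the 10 runs that left out 1 library (edgeR adjusted p = 0.072 to 0.241). In OE78, OE79 and CR78 none of the 19 passed by edgeR or DESeq2. In each 1 had an unadjusted p under 0.05 by edgeR, as did 4.82%, 3.3% and 5.4% of all genes. Between overexpression and CRISPR lines edgeR called none, against 0.572% of all genes. There 3 had an unadjusted p under 0.05 by edgeR, as did 18.1% of all genes. DESeq2 called 1 of the 17 to which it gave an adjusted p, and its larger count over all genes is given in the last section. The share of all genes called by DESeq2 was not computed, and the 0.572% of edgeR is no measure of it. In time change between overexpression and CRISPR lines neither tool called any. None had an unadjusted p under 0.05 by edgeR, while 10.1% of all genes did.

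**Figure D4:**
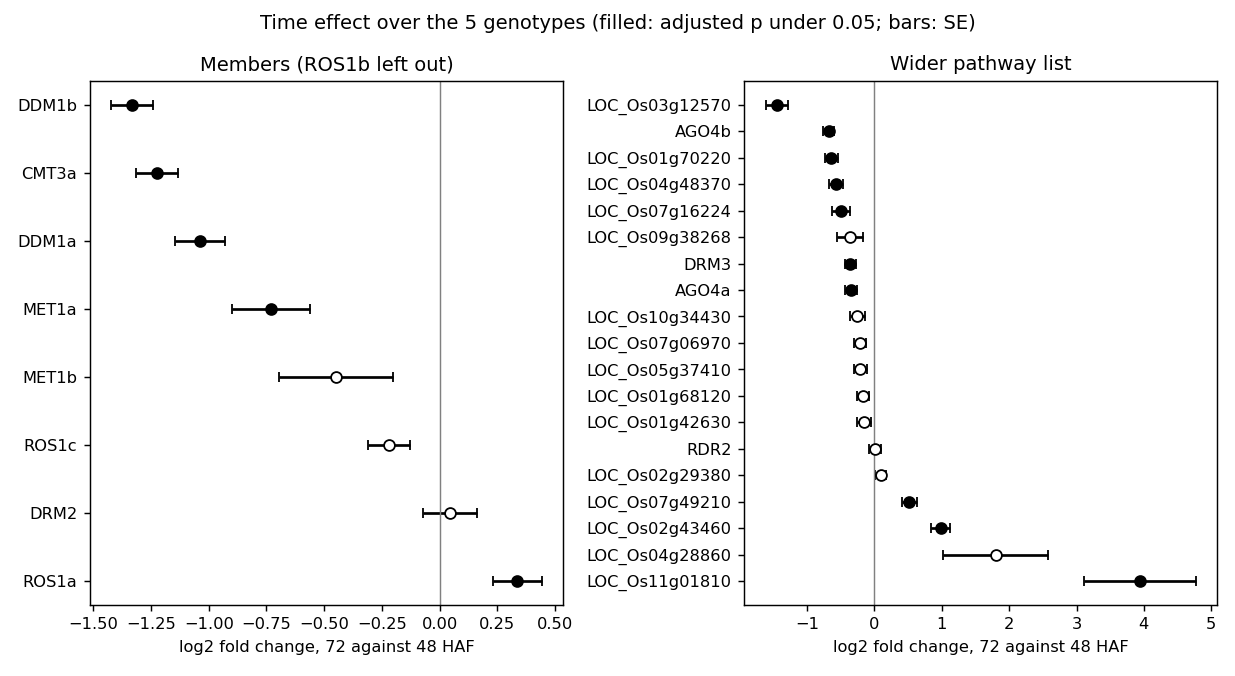
Log2 fold change from 48 to 72 HAF over the 5 genotypes for 8 members (left) and 19 further pathway loci (right), with SE as bars and filled points where the adjusted p was under 0.05. DDM1b, CMT3a, DDM1a and MET1a are filled and below 0, and ROS1a is filled and above 0. ROS1b is left out because its fitted value depends on the setting for counts of 0, which also bears on LOC_Os11g01810.

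For CMT3a and ROS1a the tested genes with the most similar pattern were sought by Pearson correlation of log2 CPM over the 10 libraries, as a description of libraries that share a time course. LOC_Os03g17164 (r = 0.992) and LOC_Os02g53740 (r = 0.989) came closest to CMT3a, the first with 60.1 to 85.7 CPM at 48 HAF and 28.6 to 32.8 at 72 HAF. LOC_Os03g50120 (r = 0.975) and LOC_Os05g47640 (r = 0.972) came closest to ROS1a, and in both the times overlapped.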

How the data were processed

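RNA-seq counts of 10 rice seed libraries were used. The deposited values are raw counts of reads for each gene. TopHat2 and HTSeq are named, without version, per the submitters' processing notes. The genome build, annotation, strand setting and handling of reads that match several genes are not stated in the labels, so paralogs are uncertain.

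Genes were kept with the edgeR filter at a minimum count of 10 (25354 genes), scaled by TMM and tested two-sided by quasi-likelihood (edgeR 4.0.16, R 4.3.3). Adjusted p-values are Benjamini-Hochberg over the whole table, with a threshold of 0.05. The time effect and the line comparisons came from an additive model with genotype and time terms (4 residual degrees of freedom), and the difference in time change from a fit of class (WT, overexpression, CRISPR) by time (4 residual degrees of freedom). Each genotype had a single library per time, so p-values measure the spread between these libraries only and cannot separate the manipulated gene from other differences of a line. Alternatives were DESeq2 1.42.0, its size factors, library totals alone (chosen after seeing the data), no low count filter, other blocks and leaving out libraries.

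The members and lists were chosen with earlier results of these data known. All 10 members are named; of the wider list, the 6 loci with the smallest adjusted p for time and those passing elsewhere are named, and AGO4a, DRM3 and RDR2 were added after their values were seen, because their names, like that of AGO4b, stood in the gene table below. Identifiers are not in the RefSeq gene table used (assembly ASM3414082v1): 5 of the 10 member names stood there on the chromosome of the identifier, and the other 5 rest on published pairings. Intervals (95%, exact Poisson or binomial) and the floor of 3 counts cover counting error only. No sequences are shown.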

Additional observations from a re-analysis of the deposited data

Results flagged for a closer look

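MET1b changed differently with time in the line classes, by a difference that did not pass over all genes. Its level at 72 HAF was below that at 48 HAF in both overexpression lines and in WT (ratio 0.61). It was above that at 48 HAF in CR79 (ratio 1.51, 95% interval 1.35 to 1.69). In CR78 the difference lay within counting error (ratio 1.04, 95% interval 0.945 to 1.16). The difference between the classes was -1.41 on the log2 scale, overexpression minus CRISPR (edgeR adjusted p = 0.0797, and between 0.000169 and 0.308 over the alternatives). Each genotype had 1 library at each time, so no library could be set against others of its own genotype and time.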

How the results depend on the processing

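Between the times 6 members passed with the settings of the report, and 4 to 6 when 1 library was left out, each count with ROS1b, whose direction the filter fixed; CMT3a, DDM1a and DDM1b passed under every alternative that gave them a value. Over all genes the time count was 7114, with 4340 to 5822 when 1 library was left out (4364 and 4340 without CR78 at 48 and 72 HAF), and 2399, of which 2366 were shared, without both CR78 and OE78 at 48 HAF, a run with fewer libraries. MET1b passed the time test without CR79 at 48 HAF (log2 fold change -0.71, edgeR adjusted p = 0.0369) or 72 HAF (-0.70, edgeR adjusted p = 0.0373). DRM2 (0.04), which did not pass, turned sign to -0.0623 with library totals alone; leaving out 1 library gave -0.0477 to 0.11, below 0 without either library of OE78 or CR79 (-0.0282, -0.0277, -0.0477 and -0.0385). With DESeq2 and with no low count filter, the gene counts were 131 and 106 for OE78 (36 in the report), 108 and 85 for OE79 (39), 95 and 100 for CR78 (19), 1209 and 1059 for CR79 (555), 792 and 642 for overexpression against CRISPR (145), and 542 and 1003 for the difference in time change (3, and 9 with library totals alone). For that difference 1 member, MET1b, passed with DESeq2, with no filter and with the line as a replicate block (1018 genes); 1 member, ROS1b, passed for overexpression against CRISPR with no filter. Leaving out 1 library gave 5 to 36 genes for OE78, 2 to 40 for OE79, 3 to 27 for CR78, 8 to 380 for CR79, 6 to 124 for overexpression against CRISPR and 0 to 164 for the difference in time change; members passing were 0 to 1 for CR79 and 0 in each of the others. The cause of these moves was not tested, except that leaving out libraries leaves fewer of them. The 2 libraries of a line, each taken relative to its time, had correlations of 0.014 (OE78) to 0.34 (CR79), so pairing by line rests on the labels. Fitting time with no replicate block changed no member's call. Depth limits MET1a, ROS1b and CMT2 most, at no more than 216, 57 and 0 reads per library.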
